A study of Sus scrofa with 16 samples.

Results

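Jejunal enterocytes are the absorptive cells that line the villi of the middle small intestine. They were chosen by measured RNA levels, as 177 cells of the 986 cells kept in the jejunum matrix and of the 7182 cells kept in the whole series. A cell was kept with at least 1000 UMIs (unique molecular identifiers, each standing for 1 captured RNA molecule), at least 500 genes and at most 25% of its UMIs from the 13 mitochondrially encoded genes. An enterocyte then had to have at least 1 UMI of EPCAM, an adhesion protein of epithelial cells, and 0 UMIs of PTPRC, the CD45 protein of blood cells. It also had under 3 UMIs of CHGA, a granule protein of enteroendocrine cells, and under 2 UMIs of BEST4, CA7 and OTOP2 together, which mark a minor class of ion-transporting cells. Last, FABP1, FABP6 and APOA1 together had to make up at least 1% of its UMIs. FABP1 and FABP6 encode binding proteins for fatty acids and bile acids, and APOA1 is a lipoprotein component. Of the 986 kept cells, 344 had EPCAM, 294 of these had no PTPRC, 244 also passed both limits on other cell types, and 177 passed the last line. Since they chose the cells, the levels of those 9 genes are given only as a description.

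The study measured epithelial cells of 4 regions of the small intestine of mixed-breed female pigs aged 7.5 weeks, with no treatment named in the labels. Tissue of the jejunum, labelled JEJ, was taken about 3 feet past the pylorus. Epithelium was released with dithiothreitol and EDTA, separated on Percoll, passed through a 40 µm filter and run on the 10x Genomics 3' version 3 chemistry. The labels list 4 titles for the region, but no cell can be tied to 1 of them, so the jejunum is 1 sample and no difference below was tested. Intervals are exact 95% intervals for counting error, and they say nothing of how pigs or tissue pieces differ. The jejunum matrix held 64364750 UMIs, and 8984 of its barcodes had at least 1000 UMIs. Without the mitochondrial limit 979 cells would have passed, so 802 cells with enterocyte RNA lay above it. None of the 177 barcodes had as many as 500 UMIs in another library, where their median counts were 16, 17 and 13.

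Enterocytes digest sugars and peptides at the microvilli of their apical side and carry the products through the cell. Absorbed fat is rebuilt into triglyceride and packed with apolipoprotein B, with the help of the transfer protein MTTP, into chylomicrons. New cells arise in the crypts, mature while they move up the villus and are shed at its tip, so cells of several ages are found in a single preparation. In mouse, sugar and peptide handling and the apolipoproteins are known to reach their highest levels at different heights on the villus.

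The label was checked against markers that the gate did not use. RBP2, a retinol-binding protein of the small intestine, had 7954 CPM (counts per 1000000 of all UMIs summed over the cells), with an interval of 7858 to 8051. It was found in 98.9% of the enterocytes and in 27.6% of 544 jejunal lymphocytes, taken as kept cells with PTPRC, no EPCAM and at least 2 UMIs of CD3E, CD2 and CD247 together. The lymphocytes had a median of 3734.5 UMIs against 7899 in the enterocytes. APOC3, an apolipoprotein of chylomicrons, had 6065 CPM and was found in 96.0% of the enterocytes and 33.5% of the lymphocytes. SI, the sucrase and isomaltase of the brush border, had 1174 CPM and was found in 67.8% and 7.0% of them. With each cell thinned to 1000 UMIs these shares were 96.0% and 10.8% for RBP2, 75.7% and 12.1% for APOC3, and 42.4% and 2.76% for SI. All 3 markers therefore stood above the level of free RNA in cells that should lack them, although barcodes of 10 to 100 UMIs held 3227 CPM of RBP2, 4236 CPM of APOC3 and 802 CPM of SI. The 5 markers EPCAM, FABP1, APOC3, RBP2 and SI made up 4.7% of all UMIs.

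The gate on FABP1, FABP6 and APOA1 had few cells near its line. The lowest cells inside had 1.055, 1.295 and 1.359% of their UMIs from the 3 genes, and the highest outside had 0.926, 0.893 and 0.793%. The median inside was 6.94% and the highest cell had 16.5%. The 67 cells that failed only this line had a median of 0.127%, and the lymphocytes had a median of 0.0622% with a highest cell of 3.31%. Nearly all of the share came from FABP1 with 30880 CPM and APOA1 with 30500 CPM, since FABP6 gave 1 UMI.

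Markers of other cells were mostly absent. The stem cell genes OLFM4, LGR5, ASCL2 and EPHB2 had 0 UMIs, with an upper interval limit of 1.127 CPM. OLFM4 had 613 CPM in the 67 cells below the line. Of 9 enteroendocrine markers 7 were at 0, of 7 B or plasma cell markers 5 were at 0, and of 6 markers of stroma or endothelium 5 were at 0. Of 6 tuft cell markers 4 were at 0, and of 7 myeloid markers 5 were at 0. T and innate lymphoid markers summed to 82.8 CPM, against 43450 CPM in the lymphocytes, with CD8A and KLRB1 at 0. Goblet markers summed to 1656 CPM, most of it in few cells. In 3 cells with at least 10 UMIs of MUC2, the main mucin of goblet cells, lay 94.7% of the UMIs of the trefoil peptide TFF3, 74.4% of SPINK4 and 87.1% of MUC2. Another 3 cells had at least 20 UMIs of the guanylins GUCA2A and GUCA2B and held 87.8% and 81.4% of these genes and 94.4% of SPIB. Neither set was removed, since the gate keeps them, and list genes that fell under the 2-fold line without these 6 cells are given both ways.

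The RNA of jejunal enterocytes was concentrated in a small number of genes. The 15 highest genes made up 34.3% of all UMIs, and 5 of them belonged to the 13 mitochondrial genes used in the gate. Because the chemistry counts 3' ends, a UMI count does not grow with transcript length. Other differences in how well genes are captured and counted were not tested, so rankings of genes by CPM are rankings of UMIs. The highest gene was S100G, the calcium-binding protein calbindin D9k, with 45380 CPM (45150 to 45610). Next came ENSSSCG00000024911, which has no symbol, with 36000 CPM, mitochondrial COX3 with 30970 CPM and the gate genes FABP1 and APOA1. The metallothioneins MT1A and MT1X, which bind zinc and copper, had 24330 and 13280 CPM, at ranks 8 and 11. GSTA2, a glutathione transferase, had 13060 CPM, and the iron storage subunit FTL had 5948 CPM. S100G was found in all 177 cells, with a per-cell level from 736 to 112600 CPM, so even this gene ranged widely. In barcodes of 10 to 100 UMIs, which hold free RNA, S100G had 21770 CPM, below mitochondrial COX3 with 72820 CPM and COX1 with 68080 CPM.

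Each absorptive task was led by 1 or a few genes. For sugars, SI with 1174 CPM and the sodium-glucose carrier SLC5A1 with 1048 CPM stood above the basolateral carrier SLC2A2 with 240 CPM and the fructose carrier SLC2A5 with 116 CPM. In fructose breakdown, the kinase genes KHK and TKFC had 685 and 291 CPM. Among brush border peptidases, aminopeptidase N (ANPEP) had 1104 CPM and ENPEP had 568 CPM. Enteropeptidase (TMPRSS15), which starts the activation of pancreatic trypsin, had 26.9 CPM. The neutral amino acid carrier SLC6A19, at 253 CPM, and the peptide carrier SLC15A1, at 202 CPM, were of similar size. In barcodes of 10 to 100 UMIs, KHK had 693 CPM and TMPRSS15 76.1 CPM, above their levels in the enterocytes. SI, SLC5A1, ANPEP, ENPEP and TKFC had 802, 451, 355, 278 and 106 CPM there, below their levels in the enterocytes.

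Fat handling took a larger share of the RNA than sugar handling. FABP2, the intestinal fatty acid binding protein, had 6308 CPM, and the triglyceride enzymes AGPAT2 and DGAT1 had 986 and 484 CPM. Of the chylomicron genes, APOC3 had 6065 CPM, APOA4 3881 CPM, APOB 1081 CPM and MTTP 698 CPM, while APOE was at 0. In barcodes of 10 to 100 UMIs, APOB had 1250 CPM and DGAT1 529 CPM, above their levels in the enterocytes. FABP2, APOC3, APOA4 and MTTP had 1998, 4236, 1747 and 318 CPM there, below their levels in the enterocytes. Bile acid export was represented by SLC51B with 793 CPM and SLC51A with 126 CPM. The bile acid importer SLC10A2 had 6 UMIs in 3 cells, and FGF19, which signals bile acid uptake to the liver, had none. The regulators were led by CREB3L3 with 420 CPM, a membrane-bound factor of lipid metabolism, followed by BCL2L15 with 252 CPM, KLF5 with 245 CPM and HNF4G with 241 CPM. HNF4A had 85.5 CPM, and CDX1 had 3 UMIs. CCL25, the chemokine that draws lymphocytes to the small intestine, was the highest defence gene with 1277 CPM, and MHC class II genes were near 0, with 2.75 CPM of CD74.

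The enterocytes fell into groups of very different depth and mitochondrial share. Total UMIs ran from 1031 to 67951 per cell, and 73 cells had at least 20000 UMIs, 53 had under 3000 and only 8 lay between 10000 and 20000. Of the 73 deepest cells 1 had under 5% mitochondrial UMIs, while 41 of the 53 shallowest did. The cells were split at their median of 7899 UMIs. The 88 deep cells had a median of 36408 UMIs, 4471.5 genes and 13.4% mitochondrial UMIs. The 89 shallow cells had a median of 2699 UMIs, 887 genes and 1.71% mitochondrial UMIs. When each cell was thinned to 1000 UMIs, the median number of genes was 489.5 in deep and 454 in shallow cells. The gate genes made up a median of 5.91% of UMIs in deep and 8.78% in shallow cells, and the need for 1 EPCAM UMI is harder to meet in a shallow cell.

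**Figure D1:**
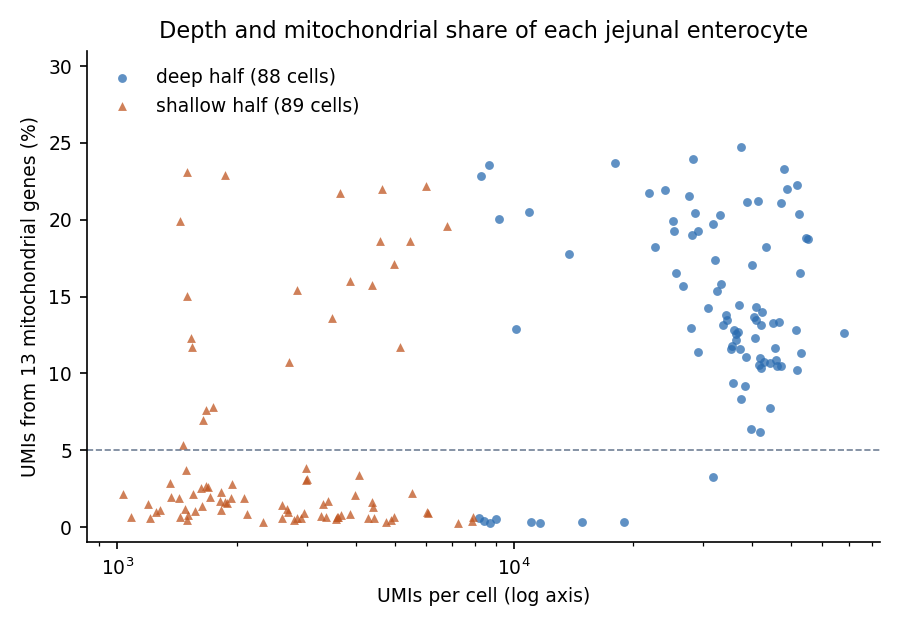
Each point is 1 jejunal enterocyte, with its total UMIs on a log axis and the percentage of its UMIs from the 13 mitochondrial genes. The 88 deep cells are circles, the 89 shallow cells triangles, and the dashed line is at 5%. The deep cells centre on 36408 UMIs and 13.4%, while 66 shallow cells lie under 5%, as do 9 deep ones.

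Deep and shallow enterocytes differed in some sugar, lipoprotein, defence and water transport genes. Of 6963 genes with at least 20 UMIs, 970 (13.9%) were at least 2-fold higher in the deep group and 360 (5.17%) at least 2-fold lower. Among 205 genes of the functional lists, 34 were higher (16.6%) and 25 lower (12.2%). Of those 34 genes 11 were mitochondrial, and without the 13 mitochondrial genes the counts were 23 higher (12.0%) and 25 lower (13%) of 192. The share of higher genes was thus close to the background and the share of lower genes above it. The median ratio was 1.11 for list genes and 1.10 for all genes, and a depth sum of 3006171 against 267680 UMIs makes the shallow group the less precise side.

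Some genes of sugar digestion were higher in deep cells. SI ranged over deep cells from 0 through a median of 1059 to 4690 CPM, and over shallow cells from 0 through a median of 0 to 8778 CPM. The groups overlapped, but 83 of 88 deep cells had a SI UMI against 37 of 89 shallow cells. With each cell thinned to 1000 UMIs, SI was found in 56.8% of deep and 28.1% of shallow cells. Summed levels were 1233 and 512 CPM, a ratio of 2.41 (2.03 to 2.88). SLC5A1 had 1093 and 538 CPM, a ratio of 2.03 (1.72 to 2.42), and the trehalase TREH had 198 and 78.5 CPM, a ratio of 2.53 (1.64 to 4.11). In all, 3 of 6 sugar genes compared were higher and none lower. ANPEP stayed under the 2-fold line at 1.79, and no peptidase was higher. In fructose breakdown, the kinase gene TKFC had a ratio of 2.83 (1.96 to 4.26) and the glucose phosphate carrier SLC37A4 2.30.

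Some transport and regulatory genes also stood higher in the deep group. NPC1L1, the apical cholesterol importer, had 119 against 29.9 CPM, from 8 shallow UMIs, a ratio of 3.98 (2.00 to 9.30). The iron importer SLC11A2 rested on 9 shallow UMIs, with a ratio of 3.21 (1.67 to 7.07), but it was also found in 60.1% of lymphocytes. Of 17 regulators compared 4 were higher, among them KLF5 at 2.37 (1.64 to 3.57), BCL2L15 at 2.28 (1.60 to 3.38) and GATA6 at 8.28 (2.26 to 68.9). GATA6 had 2 shallow UMIs. MTTP, at 732 against 317 CPM and a ratio of 2.31 (1.86 to 2.90), was the only chylomicron gene that was higher. Of 6 defence genes compared 4 were higher, namely NLRP6, C3, PIGR and DMBT1, but the shallow cells held only 2, 3, 5 and 8 UMIs of them. The early response gene EGR1 had a ratio of 2.62, and mitochondrial COX1 had 2.11. COX1 turned direction in some settings, with 0.70 among cells with at least 5% mitochondrial UMIs and 0.91 when the mitochondrial limit was set to 40%.

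APOC3, APOA4 and a few genes of other lists were lower in deep cells. APOC3 ranged over deep cells from 0 through a median of 2482 to 42820 CPM and over shallow cells from 0 through a median of 12970 to 52710 CPM. The groups overlapped over most of their range. The sums were 5051 and 17460 CPM, so APOC3 was 3.46-fold lower (3.35 to 3.57) in the deep group. APOA4 was 2.38-fold lower (2.27 to 2.49), with 3487 against 8305 CPM. The triglyceride enzyme DGAT2 was 4.26-fold lower (3.07 to 5.85), with 48.2 against 206 CPM. Of 12 interferon response genes compared 2 were lower, B2M by 2.14-fold (2.01 to 2.27) and ISG15 by 3.04-fold (2.49 to 3.69). B2M, the light chain of MHC class I, is also a gene of lymphocytes, where it had 4839 CPM against 2239 in deep and 4786 in shallow enterocytes. The other genes that were lower included the gluconeogenic enzyme PCK1 (2.22-fold), the carotene-cleaving enzyme BCO1 (2.39-fold), the iron exporter SLC40A1 (2.04-fold), enteropeptidase (TMPRSS15, 2.50-fold), the cytochrome CYP2C49 (2.91-fold) and the haem oxygenase HMOX1 (2.79-fold). In barcodes of 10 to 100 UMIs, BCO1 had 153 CPM and TMPRSS15 76.1 CPM, against 113 and 26.9 CPM over all enterocytes. APOC3 and APOA4 had 4236 and 1747 CPM there, against 6065 and 3881 CPM. The part of free RNA in these differences was not tested. The most abundant genes did not all move alike. The ratio was 0.92 for S100G, 1.08 for FABP2, 1.05 for GSTA2 and 1.27 for RBP2. It was 0.64 for MT1A, 0.60 for MT1X, 0.59 for ENSSSCG00000024911 and, as a description since it belongs to the gate, 0.46 for APOA1.

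Of 15 ion and water transport genes compared 6 were lower in the deep group, and 5 without the 6 cells rich in MUC2 or guanylins. The gene that fell under the line was the chloride channel CFTR, named after its values were seen, with a ratio of 0.45 (0.28 to 0.76) with those cells and 1.07 (0.54 to 2.40) without. Over all lists, 37 genes were higher (18%) and 23 lower (11.2%) without those cells, against 15% and 4.76% of all genes. The amino acid carrier SLC6A20 (0.37 with and 0.55 without them) and the cholesterol exporter ABCA1 (0.499 and 0.502) also fell under the line. AQP10, a channel for water and glycerol, had 59 UMIs in deep and 16 in shallow cells and was 3.05-fold lower (1.64 to 5.36). The guanylins GUCA2A and GUCA2B had 14 UMIs each in deep cells and 289 and 223 in shallow cells. Without the 6 cells rich in MUC2 or guanylins both were still lower in the deep group, but their levels over all other enterocytes were 11.3 and 13.5 CPM. Barcodes of 10 to 100 UMIs held 1447 CPM of GUCA2A and 799 CPM of GUCA2B, and the part of this free RNA was not tested. The complement protease CFD, outside the lists, had 53.9 against 332 CPM and was 6.17-fold lower (4.71 to 8.04). This difference rested on those cells, since without them the ratio of deep to shallow was 0.69. The adhesion protein NECTIN3 stood at the other end, with 112 UMIs in deep and 1 in shallow cells, a ratio of 9.97 (1.75 to 397).

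**Figure D2:**
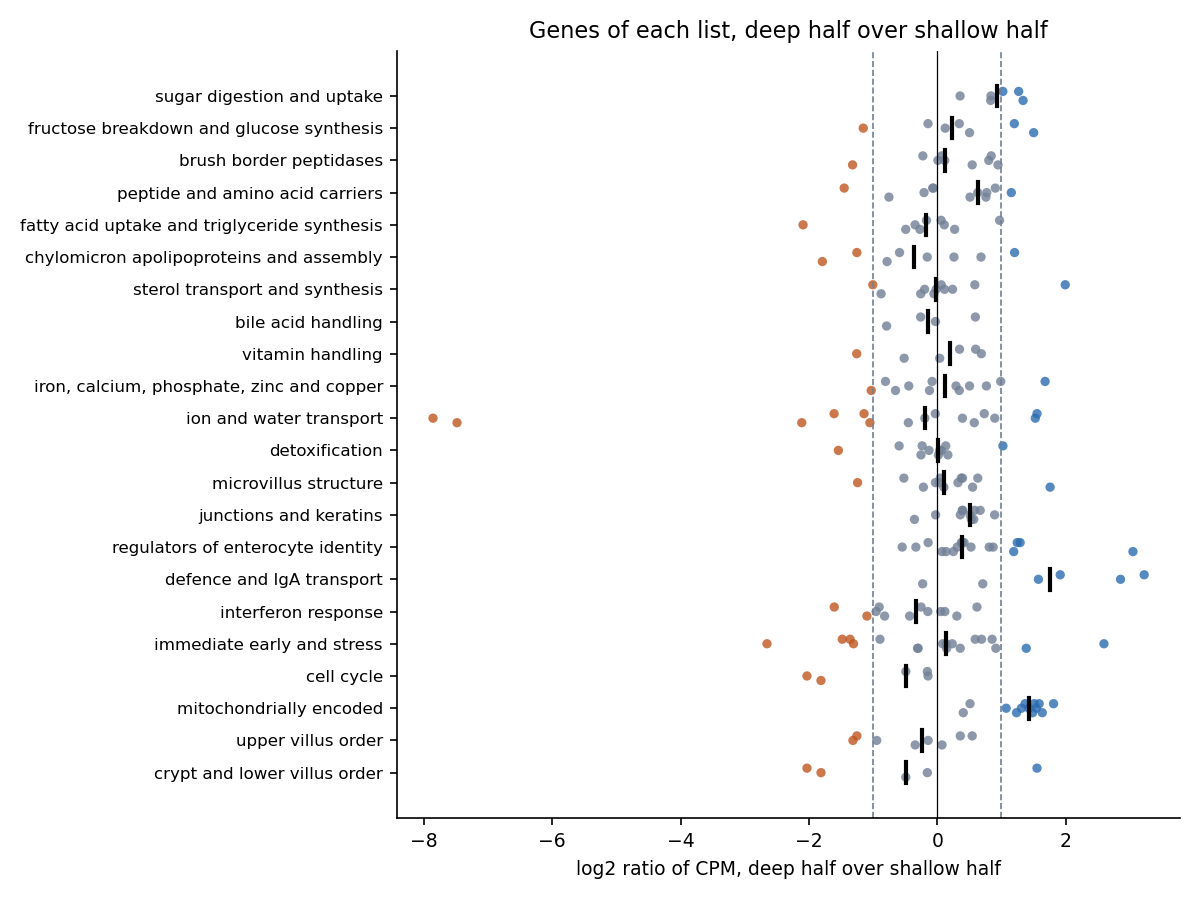
Each point is 1 gene of a functional list, placed by the log2 ratio of its CPM in the deep over the shallow group. Black bars are list medians, and dashed lines mark 2-fold, with points past them coloured. Sugar genes, defence genes and the mitochondrially encoded genes lie mostly to the right, and the 2 points farthest left are the guanylins.

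Some of these genes differed more by mitochondrial share than by depth. At a line of 5%, the cells fell into 79 deep and 23 shallow cells above it, and 9 deep and 66 shallow cells below it. SI had 1268 and 980 CPM in the deep and shallow cells above the line, and 432 and 331 CPM in those below. SLC5A1 had 1117 and 900 CPM above and 538 and 399 CPM below. KLF5 had 265 and 255 CPM above and 73.4 and 51.8 CPM below. For these 3 genes, cells of unlike depth but the same mitochondrial class were closer than cells of like depth. Within the class above the line the ratios of deep to shallow were 1.29 for SI, 1.24 for SLC5A1 and 1.04 for KLF5. EGR1 followed the same arrangement, with 424 and 403 CPM above the line and 89.7 and 62.1 CPM below it.

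The apolipoproteins and B2M showed another arrangement, in which 1 group stood apart. APOC3 had 4443 CPM in the 79 deep cells above the line, but 13040 CPM in the shallow cells above it, 19340 CPM in the deep cells below it and 19170 CPM in the shallow cells below it. APOA4 had 3258 CPM in the first group and 5531, 8893 and 9374 CPM in the others. B2M had 2129 CPM in the first and 3893, 4834 and 5130 CPM in the others, and ISG15 had 153 against 510, 440 and 497 CPM. So these genes were lower in the deep cells with a high mitochondrial share than in any other group.

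The 23 shallow cells with a high mitochondrial share had levels of their own. PCK1 had 524 CPM there and 89.7 to 98.3 CPM in the other groups. BCO1 had 416 CPM there, against 101, 114 and 176 CPM. APOB had 2578 CPM, against 1099 CPM in the deep cells above the line, 1027 CPM in the deep and 274 CPM in the shallow cells below it. By contrast RBP2 had 3021 CPM there and 6610 to 8159 CPM elsewhere, and the protease inhibitor SPINK1 had 1 UMI. Of these 23 cells 4 belonged to the 6 cells rich in MUC2 or guanylins, and without them PCK1 was at 609, BCO1 at 484, APOB at 2981 and RBP2 at 3137 CPM.

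Counting over the lists, few genes that were higher in the deep group held within a mitochondrial class. Of 34 such genes 33 could be compared among cells above the line, and 8 were still at least 2-fold higher. Of 25 lower genes 22 could be compared, and 18 were still at least 2-fold lower. In that class 1305 of 6820 genes (19.1%) were at least 2-fold lower and 755 (11.1%) higher, and of 203 list genes 44 (21.7%) were lower and 25 (12.3%) higher, so both list shares were near the background. Below the line only 1 of 19 higher and 1 of 14 lower genes stayed past 2-fold, with 9 deep cells there, where 3.73% of all genes were higher and 5.48% lower. When the mitochondrial limit of the gate was set to 10%, 85 cells were left and split anew at their own median into 42 deep and 43 shallow cells. Many of these deep cells belonged to the shallow group of the main split. The ratios of deep to shallow were then 0.77 for SI, 0.81 for SLC5A1, 1.06 for APOA4, 1.19 for DGAT2 and 0.85 for APOC3. At that limit TMPRSS15 (3.09), SLC40A1 (2.34), AQP10 (1.57) and HMOX1 (1.50) also turned direction. The part of depth and of mitochondrial share in each difference was not tested.

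**Figure D3:**
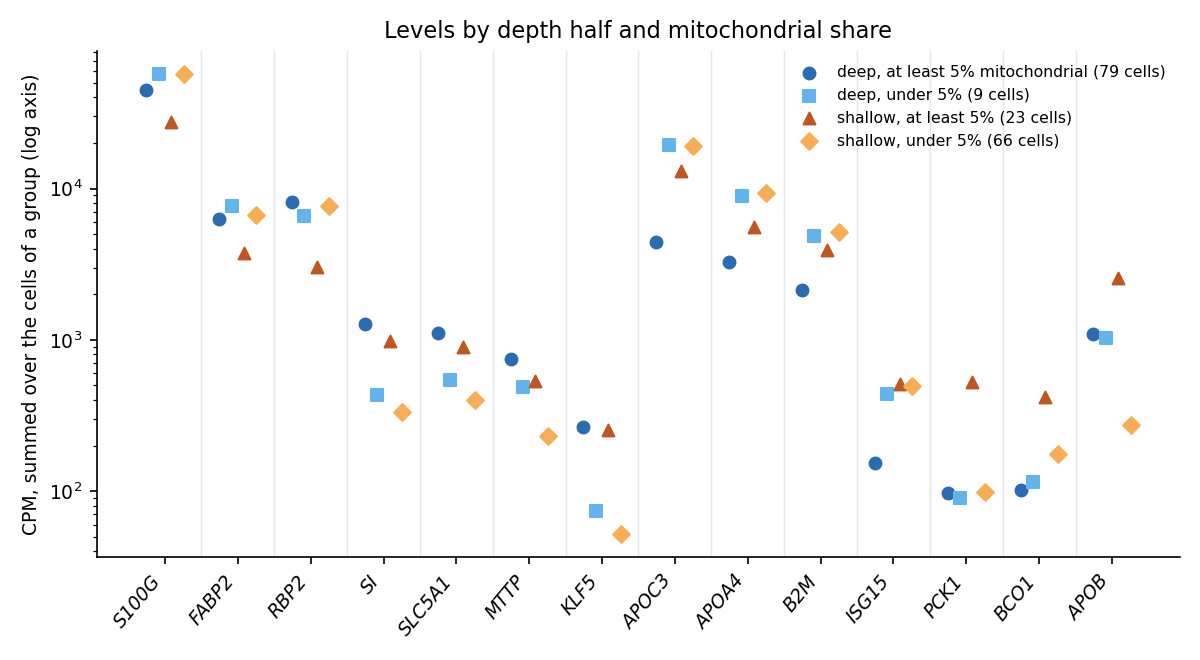
Summed CPM on a log axis for 14 genes in the 4 groups made by depth group and mitochondrial share. For SI, SLC5A1 and KLF5 the 2 groups above 5% lie together, for APOC3, APOA4, B2M and ISG15 the deep cells above 5% lie lowest, and for PCK1, BCO1 and APOB the 23 shallow cells above 5% lie highest.

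Variation between single cells was described at equal depth, with 124 cells of at least 3000 UMIs thinned to 3000 UMIs each. The Fano factor, the variance over the mean, is 1 for pure counting noise. Over 1170 genes its median was 1.16, and 108 genes (9.23%) reached 2, a line chosen after the values were seen. TFF3 was highest with 189, but had 6.73 without the 6 cells rich in MUC2 or guanylins, and SPINK4 had 63 with them and 1.72 without. APOA1 had 66.8, APOC3 39.0, COX1 44.7, MT1A 27.8 and S100G 25.9, and without those cells APOA1 had 65.6, APOC3 40.2, COX1 48.0, MT1A 27.5 and S100G 24.8. SI had 3.22. The Fano factor grows with a gene's mean, so it does not rank genes of unlike level. The variance beyond counting noise, divided by the squared mean, was 1.29 for APOC3, 0.77 for SI, 0.53 for APOA1, 0.32 for MT1A and 0.18 for S100G.

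APOC3 ranged from none to many copies per cell. Of the 124 cells at 3000 UMIs, 25 had no APOC3 UMI, the lower quartile was 1, the median 18, the upper quartile 45.5 and the highest cell 132. FABP2, the intestinal fatty acid binding protein, was present in all 124 cells, with quartiles of 11 and 24 UMIs. FABP1 was likewise present in all, with quartiles of 54 and 113 UMIs. APOC3 was lower among the 90 cells with at least 5% mitochondrial UMIs, with a median of 9, than among the other 34, with a median of 56.5.

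APOC3 moved with the other apolipoproteins and against keratin 8. Among 17 abundant genes with a mean of at least 5 UMIs at this depth, 136 pairs were compared by Pearson's r of log counts over the 124 cells, as a description. All pairs share the library, and counts out of 3000 trade off against each other. The median r was 0.22. The highest was that of APOC3 with APOA1, at 0.88, followed by MT1X with MT1A at 0.79, APOA4 with APOA1 at 0.75 and APOA4 with APOC3 at 0.68. RBP2 with FABP1 had 0.65, and GSTA2 with EPHX1, a pair of detoxifying enzymes, had 0.64. APOC3 and APOA1 kept 0.85 and 0.88 in cells above and below the 5% line. The genes of APOA1, APOC3 and APOA4 are neighbours in mammalian genomes.

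At the other end, KRT8, the keratin of simple epithelia, had -0.65 with APOC3 and -0.55 with APOA1. Its r with APOC3 was -0.63 among cells above the 5% line and -0.73 among those below. GSTA2 and EPHX1 also ran against APOC3, at -0.36 and -0.34, and with KRT8, at 0.47 and 0.46. B2M ran with the apolipoproteins, at 0.64 with APOA1 and 0.62 with APOC3. FABP1 and RBP2 had -0.05 and -0.21 with APOC3 over all cells. Below the 5% line these values were -0.40 and -0.48, and above it -0.008 and -0.09. RBP2 ran with GSTA2 and KRT8, at 0.50 and 0.38. S100G, the highest gene, had 0.00 with APOC3 and 0.08 with KRT8, and below the 5% line it had -0.26 with APOC3.

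**Figure D4:**
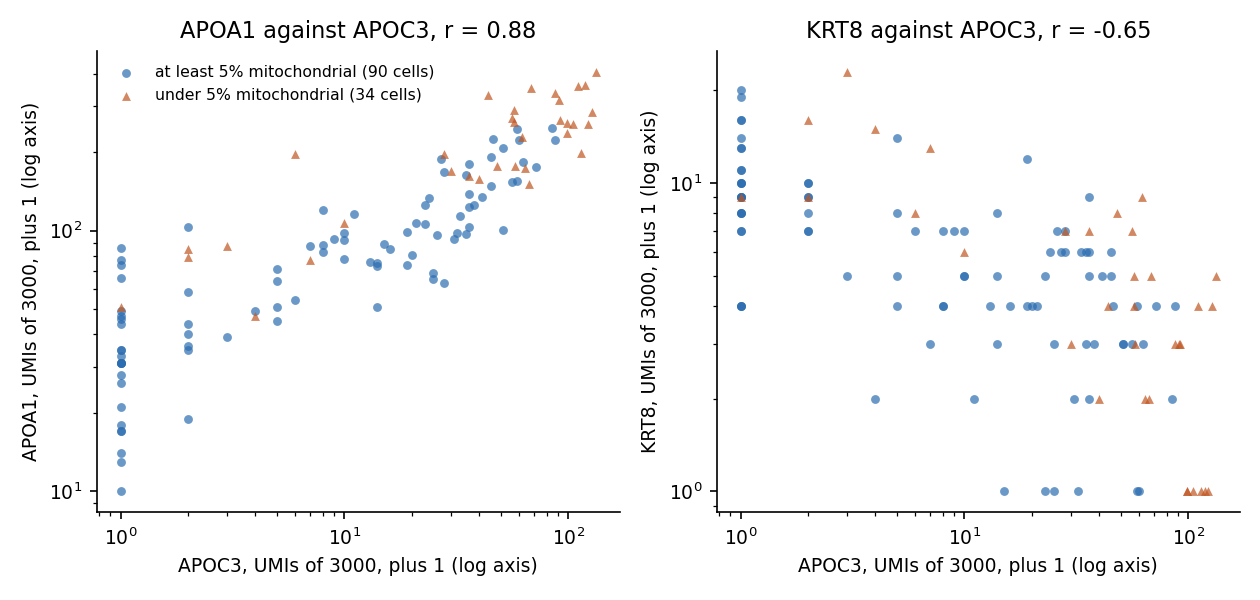
UMIs per cell at 3000 UMIs, plus 1, on log axes, for APOA1 (left) and KRT8 (right) against APOC3 in 124 enterocytes. Circles are the 90 cells with at least 5% mitochondrial UMIs and triangles the other 34. APOA1 climbs with APOC3 (r = 0.88), KRT8 declines with it (r = -0.65), and the column at the far left holds the 25 cells with no APOC3 UMI.

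The same 124 cells were ordered along the villus with known genes. The score was the mean log count of 11 genes of the upper villus minus that of 14 genes of the crypt and lower villus, at 3000 UMIs. A gene of either list was compared in an order made without it. The 53 shallower cells were left out, all from the shallow group. The score rested on few genes, since APOA4 gave 66.6% of the UMIs on the upper side and KRT20 19.0%, while the tubulin TUBA1B gave 76.7% on the other. With 0 UMIs of OLFM4, LGR5, ASCL2, EPHB2 and SOX9, the order ranks cells that lack crypt genes and does not reach the crypt. The upper and lower groups of 41 cells each, with 42 cells between them, were alike in depth, with medians of 27601 and 26789 UMIs, and in mitochondrial share, with 11.7 and 11.6%. The gate genes made up a median of 7.83% in the upper and 5.69% in the lower group, and ribosomal protein genes 4.18 and 5.64%.

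Of 8 upper villus genes compared, 1 was past 2-fold and higher. In orders made without the gene in question, adenosine deaminase (ADA) was 2.07-fold higher in the upper group (1.29 to 3.38), CREB3L3 1.62-fold (1.42 to 1.86) and APOA4 1.48-fold (1.41 to 1.55). ENPEP and the nucleoside carrier SLC28A2 both had 1.23. KRT20, a keratin of differentiated cells that the list puts on the upper side, went the other way with 1503 CPM in the upper and 2178 CPM in the lower group, a ratio of 0.69 (0.64 to 0.74). TUBA1B was lower in the upper group, at 0.74 (0.60 to 0.91), as its list says.

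Some genes of fat absorption were higher in the upper group, in an order whose score leaned on the chylomicron gene APOA4. APOA4 had an r of 0.68 with APOC3 over the same cells, so the APOC3 ratio is not independent of the order. Of 5926 genes compared 148 (2.50%) were at least 2-fold higher and 220 (3.71%) at least 2-fold lower. Of 196 list genes 14 (7.14%) were higher and 6 (3.06%) lower. Without APOA4 in the score 5 of these 14 stayed past 2-fold, and 2.54% of list genes were higher against 3.02% of all genes. The ratios of APOC3, APOB, ACSL3 and FABP2 below come from the order with APOA4, and their sizes without it are not reported here. APOC3 ranged over the lower group from 23.1 through a median of 2739 to 38420 CPM and over the upper group from 162 through a median of 7570 to 42820 CPM. The groups overlapped, and the sums of 3998 and 9485 CPM gave a ratio of 2.37 (2.29 to 2.46). APOB had medians of 395 and 1108 CPM in the lower and upper group, and its sums of 703 and 1600 CPM gave 2.28 (2.08 to 2.49). ACSL3, which activates fatty acids, had 530 and 1095 CPM, a ratio of 2.07 (1.86 to 2.30). FABP2 stayed just under the line at 1.90 (1.83 to 1.97). As a mean over cells, which gives each cell the same weight, the ratios were 1.16 for APOC3, 2.41 for APOB and 1.88 for ACSL3, so the APOC3 ratio depended on how the cells were weighted. Without the 6 cells rich in MUC2 or guanylins, 14 list genes were higher (7.14%) and 9 lower (4.59%), against 2.48% and 4.57% of all genes. ACSL3 had 1.92 then, the cytochrome CYP2C49 1.76 in place of 2.36, the anion exchanger SLC26A6 1.54 in place of 2.00 and GATA6 0.504 in place of 0.46, all under the line.

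Sugar and calcium genes stayed under the 2-fold line between the groups. SI had a ratio of 1.08 (0.99 to 1.17), SLC5A1 1.23 (1.13 to 1.33), the peptidase ANPEP 0.98 (0.90 to 1.07) and S100G 1.18 (1.16 to 1.19). RBP2 was 1.48-fold higher (1.43 to 1.53), also under the line. None of 6 sugar genes, 12 mineral genes, 12 microvillus genes or 13 mitochondrial genes compared passed 2-fold. Between depth groups, the ratio was 2.41 for SI and 1.198 (1.05 to 1.37) for APOB.

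Other genes higher in the upper group were spread over the lists. The peptidase ACE had a ratio of 2.57 (1.87 to 3.57) and TMPRSS15 3.59 (2.02 to 6.75), the latter from 16 UMIs in the lower group. PCK1 had 2.43 (1.79 to 3.32), BCO1 2.46 (1.83 to 3.34), the lipoprotein receptor SCARB1 2.52 (1.48 to 4.44) and CYP2C49 2.36 (1.53 to 3.72). In water transport AQP10 had 2.32 (1.24 to 4.52), from 33 and 16 UMIs. Of 11 interferon response genes 2 were higher, IFI6 at 2.88 (2.42 to 3.45) and GBP1 at 2.23 (1.87 to 2.65), both also found in lymphocytes at 183 and 458.5 CPM. Outside the lists the higher genes included CYP1A1, a cytochrome induced by aromatic compounds, with 74.5 and 247 CPM and a ratio of 3.32 (2.56 to 4.35), the interferon-induced ISG12(A) at 2.47 (2.17 to 2.83) and the growth factor EREG at 2.42 (1.95 to 3.02). With the gate line at 5% of UMIs, the ratio was 0.91 for ACE, 0.97 for BCO1, 0.86 for SCARB1, 0.65 for CYP2C49, 0.48 for AQP10 and 0.94 for CYP1A1, and TMPRSS15 had 0.60 among cells with at least 5% mitochondrial UMIs.

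PIGR, C3 and the keratin KRT18 were lower in the upper group. PIGR, the receptor that carries IgA across the epithelium, had 158 CPM in the lower, 29.9 CPM in the middle and 11.7 CPM in the upper group, from 168, 35 and 11 UMIs. It was found in 18 of 41, 10 of 42 and 6 of 41 cells, and was 13.6-fold lower (7.38 to 27.7) in the upper group. The complement component C3 had 135, 54.6 and 41.4 CPM and was 3.25-fold lower (2.27 to 4.76). KRT18, the partner of KRT8, had 57.5 and 8.5 CPM and was 6.77-fold lower (3.23 to 16.4), and KRT8 itself had 2756 and 1610 CPM, at 0.58 (0.55 to 0.62). The water channel AQP8 was 2.30-fold lower (1.98 to 2.69) and the regulator GATA6 2.16-fold (1.39 to 3.42). With the gate line at 5%, AQP8 had a ratio of 1.14 and GATA6 1.05.

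Outside the lists the largest shortfalls in the upper group were in PYCARD, an adaptor of inflammasomes, KRT14, a keratin best known from stratified epithelia, and SPINK1. PYCARD had 238 CPM in the lower, 108 CPM in the middle and 43.5 CPM in the upper group, a 5.48-fold difference (3.93 to 7.82). KRT14 had 766, 325 and 191 CPM, a 4.01-fold difference (3.41 to 4.74), and SPINK1 had 755, 315 and 204 CPM, a 3.70-fold difference (3.16 to 4.36). All 3 had their intermediate level in the middle group, as did PIGR and C3. PIGR, C3 and LYZ had 2008, 1739 and 1497 CPM in the 67 cells that failed the line on FABP1, FABP6 and APOA1, against 66.3, 75.5 and 1.22 CPM in the enterocytes. When the line was raised to 5% of UMIs, PYCARD, KRT14 and SPINK1 had ratios of 1.15, 1.05 and 1.12. That line left out the cells between 1% and 5%, and the 85 ordered cells that remained were put into new groups of 28. The part of each change in these ratios was not tested. PIGR had under 20 UMIs in the outer groups at that line.

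**Figure D5:**
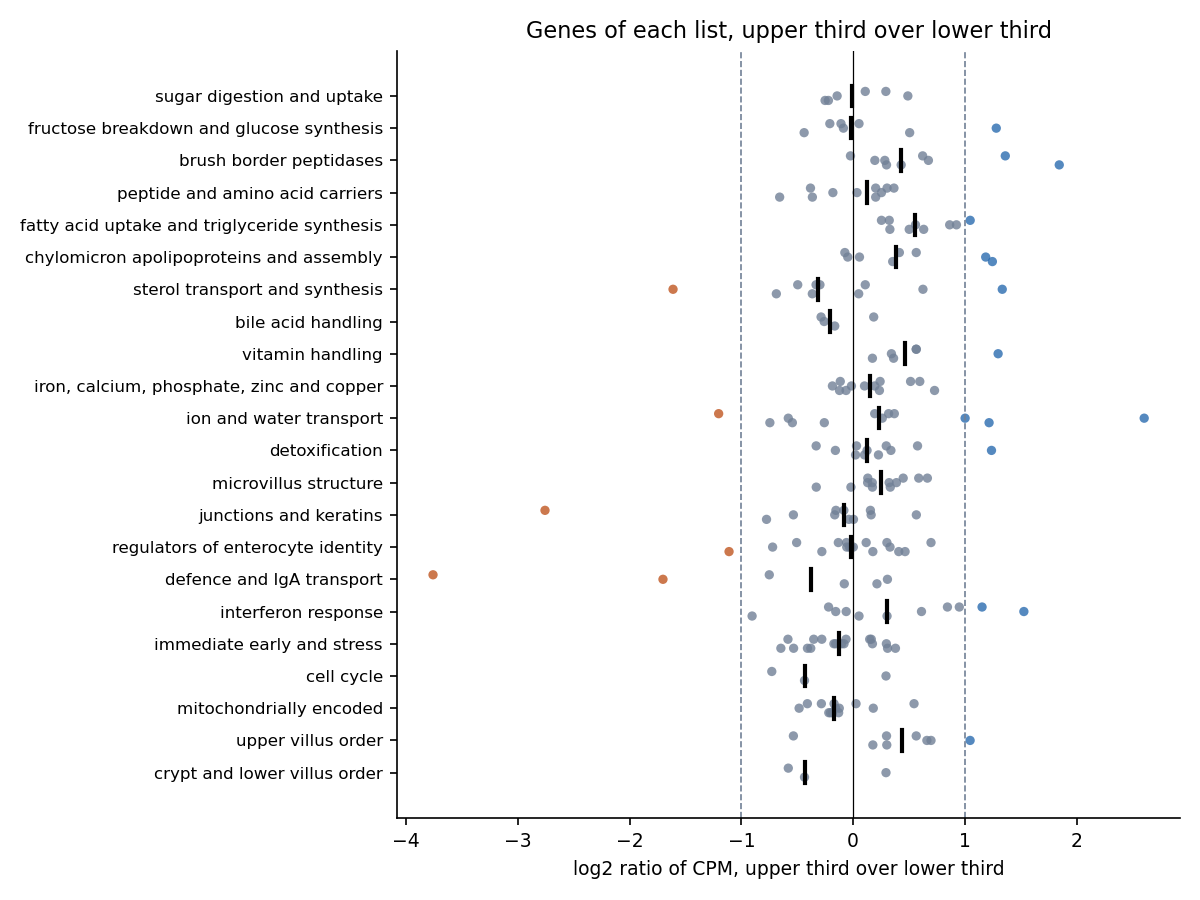
Each point is 1 gene of a functional list, placed by the log2 ratio of its CPM in the upper over the lower group of the villus order. Black bars are list medians and dashed lines mark 2-fold. The lists of fatty acid and chylomicron handling have their medians right of 0, as do those of vitamin handling, brush border peptidases and several others. PIGR, C3 and KRT18 lie farthest left, and most other lists lie within the lines.

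The order depended on APOA4 and on which cells entered it. Without APOA4 in the score, 5 list genes were at least 2-fold higher (2.54%, against 3.02% of all genes) and all 14 kept their direction. Among the 90 cells with at least 5% mitochondrial UMIs only 1 of the 14 stayed past 2-fold and 10 kept their direction, with APOC3 at 1.93, APOB at 1.88 and PCK1 at 1.90, and 2.04% of all genes were higher. Of the 6 lower genes 5 stayed past 2-fold there, with PIGR at 0.09 and C3 at 0.23. With the gate line at 5%, APOC3 had a ratio of 1.07 and APOB 1.40, and 2 of the 14 higher genes stayed past 2-fold. With all 177 cells thinned to 1000 UMIs and ordered, 2 of the 14 higher and 0 of the 6 lower genes stayed past 2-fold, and PIGR had 0.73.

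The 34 ordered cells with under 5% mitochondrial UMIs, 11 in each outer group, gave a different picture. In them 38 of 98 list genes (38.8%) and 131 of 986 genes (13.3%) were at least 2-fold higher. SI had 38 UMIs in their upper and 2 in their lower group, a ratio of 20.6 (5.32 to 176), where all ordered cells gave 1.08. APOB had 124 and 5 UMIs, a ratio of 26.9 (11.2 to 84.2), and MTTP had 48 and 7 UMIs, a ratio of 7.43 (3.34 to 19.4). SLC5A1 had 2.84 (1.56 to 5.42), while S100G had 0.73 and APOC3 1.40. The mitochondrial gene COX1 also differed, with 487 and 60 UMIs and a ratio of 8.79 (6.71 to 11.7), so mitochondrial RNA moved with the order in these cells and its part in the result was not tested.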

How the data were processed

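Per the labels, single-cell libraries of the 10x Genomics 3' version 3 chemistry were made from jejunal epithelium and sequenced on a HiSeq 3000. The deposited matrices hold raw UMI counts of 25880 genes for all barcodes, per the file headers from Cell Ranger, version 4.0.6 per the submitters' processing notes. The genome build is not given in the sources used here. Symbols came with the files for 17733 genes and from a gene name table for 977, and 7170 had none.

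No barcode filter had been applied by the authors, so cells were kept by the limits given in the report. Counts were summed over cells, divided by all UMIs of those cells and given as CPM, which carries no correction for transcript length. Ratios of summed counts have exact 95% intervals from the binomial form of the ratio of 2 Poisson counts, and for shares of cells the Clopper-Pearson interval was used. Intervals and the floor of 3 counts cover counting error only, and ratios were compared for genes with at least 20 UMIs over both groups, with 2-fold as the line. The groups were split at the median total. For the villus order, the Fano factor and the correlations, cells of at least 3000 UMIs were thinned at random to that number, and Fano factors were taken for genes with a mean of at least 0.3. Python 3.11.15, numpy 2.4.6, scipy 1.17.1 and pandas 2.3.3 were used. The ratio step was tested on simulated data for the depth groups with known changes.

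Scrublet, run in scanpy 1.11.5, called 5 of 986 kept cells by its own line. As an alternative the 8 highest scores were removed, which held none of the 177 enterocytes. Named genes were the markers and gate genes, the leading genes of each functional list by level and by ratio, up to 6 genes per direction outside the lists with at least 100 UMIs, the 15 highest genes and the 12 most variable ones, and the text gives 65 of these 164 genes with their ratios. Some genes that the rule names are not reported here. The enterocyte gate and all lists were chosen with earlier results of these data known. The 5% mitochondrial line, the sets of cells rich in MUC2 or guanylins, the gene pairs and the orders without KRT20 or APOA4 were added after these data were seen. Alternatives covered the UMI, mitochondrial and gate limits, doublets, shared barcodes, weighting, scaling, gene filters and the order. Files of the other regions were used only to count cells and shared barcodes.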

Additional observations from a re-analysis of the deposited data

How the results depend on the processing

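Of the 36 genes named with a ratio past 2-fold between depth groups, 516 values were recomputed under alternatives: 492 kept their direction, 394 values stayed past 2-fold, and 24 reversed. Of 25 genes named between villus groups, 418 of 442 values kept their direction, 303 stayed past 2-fold, and 24 reversed. These counts include alternatives that could not change a ratio. Leaving out the highest doublet scores or shared barcodes removed none of the 177 enterocytes. A minimum of 5 UMIs in place of 20 leaves the ratios of these genes as they were. Admitting cells from 500 UMIs left the villus groups unchanged, since only cells of at least 3000 UMIs were ordered. The values that kept their direction thus include some fixed in advance. The cause of a change was not tested. The mitochondrial limit changed the number of cells most, from 177 to 85 at 10% and 278 at 40%, and the 5 markers then made up 5.3% and 4.14% of UMIs. They made up 5.85% with the gate genes at 5% or more, and 4.74% without the cells rich in MUC2 or guanylins.

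Shares in brackets are those of the list genes and then of all genes under the same setting. Where a limit changed or the cells rich in MUC2 or guanylins were left out, the depth groups were split anew at the median. The classes above and below 5% mitochondrial UMIs kept the main depth line. Between depth groups, 34 list genes were higher (16.6%, 13.9%), against 21 at a limit of 40% (10%, 12.8%) and 7 among cells under 5% mitochondrial UMIs (5.22%, 3.73%). The 25 lower genes (12.2%, 5.17%) became 16 with cells from 500 UMIs (7.77%, 7.21%), 2 at a limit of 10% (1.2%, 4.21%), 9 with the gate at 5% (4.62%, 4.79%), 16 as means over cells (7.8%, 6.2%), 44 among cells with at least 5% mitochondrial UMIs (21.7%, 19.1%) and 7 among those under it (5.22%, 5.48%). The ratio of deep to shallow reversed with cells from 500 UMIs for TMPRSS15 (1.43), PCK1 (1.22) and ABCA1 (1.60), and ABCA1 also reversed with the gate at 5% (1.20) and between the deepest and shallowest of 3 depth groups (1.16). At a limit of 10% it reversed for SI (0.77), SLC5A1 (0.81), TMPRSS15 (3.09), GUCA2B (4.07), CFD (2.03), SLC40A1 (2.34), DGAT2 (1.19), APOA4 (1.06), AQP10 (1.57), PCK1 (1.02) and HMOX1 (1.50). At 40% it reversed for COX1 (0.91), and among cells with at least 5% mitochondrial UMIs for COX1 (0.70). Among cells under 5% it reversed for TMPRSS15 (1.29), TKFC (0.58), SLC40A1 (1.25), AQP10 (1.57), APOA1 (1.03) and APOC3 (1.01). With totals that left out the mitochondrial genes the median log2 ratio of all genes was 0.28 in place of 0.14. The ratios above are therefore relative to the scale used. On the scale without mitochondrial genes 31 list genes were higher (16.1%, 17.1%) and 20 lower (10.4%, 3.55%).

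Between villus groups, the 14 higher list genes (7.14%, 2.5%) became 27 at a limit of 10% (21.1%, 8.66%), 5 at 40% (2.46%, 1.86%), 3 with the gate at 5% (1.61%, 3.98%), 29 in an order by ribosomal protein share (14.6%, 5.02%), 2 with cells thinned to 1000 UMIs (0.99%, 1.64%), 1 among cells with at least 5% mitochondrial UMIs (0.508%, 2.04%), 38 among those under it (38.8%, 13.3%) and 5 without APOA4 in the score (2.54%, 3.02%). The 6 lower genes (3.06%, 3.71%) became 15 in the ribosomal order (7.58%, 10.7%), 2 within the shallower of the ordered cells (1.29%, 2.98%) and 3 under 5% mitochondrial UMIs (3.06%, 8.32%). The ratio of upper to lower reversed at a limit of 10% for BCO1 (0.67), AQP8 (2.47) and PCK1 (0.97), and at 40% for TMPRSS15 (0.74) and AQP8 (1.15). With the gate at 5% it reversed for BCO1 (0.97), GATA6 (1.05), SPINK1 (1.12), SCARB1 (0.86), CYP2C49 (0.65), PYCARD (1.15), AQP8 (1.14), AQP10 (0.48), CYP1A1 (0.94), ACE (0.91) and KRT14 (1.05). Thinned to 1000 UMIs it reversed for AQP8 (1.00) and ADA (0.78), and within the shallower of the ordered cells for PYCARD (1.23) and ADA (0.99). It reversed among cells with at least 5% mitochondrial UMIs for TMPRSS15 (0.60), SLC26A6 (0.89) and CYP2C49 (0.78), and among those under 5% for AQP8 (2.17). At 1000 UMIs 58 genes had a Fano factor of at least 2.

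No paired analysis was possible because the 4 numbered titles of the region share 1 matrix in which no cell is tied to a title. No replicate was left out for the same reason. The floor of 3 counts was 0.916 CPM over all enterocytes, and with 267680 UMIs in all shallow cells the ratios of rare genes have wide intervals.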

Other observations

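Genes of cell division were close to absent from jejunal enterocytes. Of 17 cell cycle genes 5 had enough UMIs to be compared, and the topoisomerase TOP2A had 1 UMI in all 177 cells. The replication helicase subunit MCM6 had 20.5 CPM, the tubulin regulator STMN1 12.8 CPM and the general tubulin TUBA1B 186 CPM. Genes of the early stress response were present, with 816 CPM of JUN, 722 CPM of FOS and 1091 CPM of the chaperone HSPA8. Barcodes of 10 to 100 UMIs held 952 CPM of JUN and 599 CPM of HSPA8.

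Detoxification and the cytoskeleton of the microvillus were represented by abundant genes. After GSTA2, the detoxification list was led by GSTO1 with 2991 CPM, the epoxide hydrolase EPHX1 with 2721 CPM and the retinal dehydrogenase ALDH1A1 with 2206 CPM. The actin bundler PLS1 had 1280 CPM, the scaffold SLC9A3R1 554 CPM and PDZK1, which anchors carriers at the brush border, 450 CPM. Of 11 detoxification genes compared between depth groups 1 was higher and 1 lower past 2-fold, and of 13 microvillus genes also 1 and 1. Several genes of vitamin, salt and acid-base handling had no UMI, among them the cobalamin receptor gene CUBN, the anion exchanger SLC26A3 and the carbonic anhydrase CA4.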
